A study of Mus musculus with 2 samples.

Results

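The genes described here are 32 genes that macrophages of the mouse embryo are known to express, taken by symbol and read in tongue RNA of embryonic day 12. The deposited tables held 31 of the 32 under the symbols sought, out of 22072 symbols in all. They filled 34 transcript rows, each with the status OK in both libraries, and the FPKM of a gene is the sum over its rows. FPKM is the number of sequenced fragments per kilobase of transcript, scaled to the mapped fragments of the library. The remaining gene, Spi1, stood under its older symbol Sfpi1, which the RefSeq synonyms pair with it. Its values are given, but they enter no count below.

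The control library carried 1 conditional (floxed) and 1 wild-type allele of Osr1 (Osr1f/+). In the mutant library the conditional allele was paired with a null one and Wnt1cre was present (Osr1f/-; Wnt1cre). Both came from mice of a mixed background, and each was made from pooled tongues, from 3 pairs of control and mutant samples per the series' design text. Wnt1cre acts in the neural crest lineage, which forms the connective tissue of the tongue, whereas macrophages arise from blood-forming progenitors outside that lineage. By the genotype labels, the conditional allele should therefore stay intact in macrophages of the mutant, which still carry the null allele. The control label names neither a null allele nor a Cre. There was 1 library per genotype, so each ratio compares 2 libraries and no test between genotypes could be made.

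Macrophages reach the tissues of the embryo early, from progenitors of the yolk sac and later of the fetal liver. Their formation depends on the transcription factor PU.1, encoded by Spi1, and their survival on the receptor encoded by Csf1r. In tissues they engulf dying cells, degrade them in lysosomes, and make complement C1q and other secreted factors. In RNA of whole tongue, fewer macrophages and less RNA per macrophage cannot be told apart.

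PU.1 binds DNA around the core GGAA, with GAGGAAGT as a preferred form in myeloid genes. The RefSeq promoter table (GRCm38.p6) held windows for 24 of the 32 genes, each from 250 bases before to 50 bases after a gene's start. GAGGAAGT, searched on both strands (as ACTTCCTC on the other), stood in a window of 6 of these 24 genes, or 25%. It stood in 3.69% of the 27025 genes with a window. The shorter GGAAGT, which lies inside the longer form, stood in 14 of 24 genes and in 26.5% of all genes. The 8 bases were chosen as a known PU.1 form, with the windows already seen. A match describes the letters and is no evidence of binding, and the shares were not tested. The 6 stretches are shown because they put the same letters into genes of unlike roles and place them close to the start in most. Capitals mark GAGGAAGT or its reverse complement, and each stretch is written 5′ to 3′ along the strand of its gene.
Ctss (chr3:95526773-95526802, plus strand): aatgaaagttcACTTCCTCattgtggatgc
Cd53 (chr3:106790125-106790154, minus strand): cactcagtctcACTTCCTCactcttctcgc
C1qc (chr4:136893091-136893120, minus strand): ggacggcagacACTTCCTCattttggcaca
Pf4 (chr5:90772414-90772443, plus strand): ttctgcagagcACTTCCTCatcctgtatcc
Hpgds (chr6:65144761-65144790, minus strand): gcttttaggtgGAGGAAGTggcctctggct
F13a1 (chr13:37049181-37049210, minus strand): cgagtccttttGAGGAAGTacccagaggca

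The first of the 8 bases lay at −2 from the start in Ctss, at −10 in Pf4, at −49 in Hpgds and at −195 in C1qc. It lay after the start in Cd53, at 7, and in F13a1, at 15, counting the start as 1. The genes that hold it did not share a direction in the data below. Cd53 was lower in the mutant library, C1qc was higher, and Ctss was nearly level. The genes whose ratio had an interval above 1, Lyz2 and Cd68, hold only the shorter form in their windows. It is marked in capitals in the bases before the start of Lyz2, where it begins at −100 on the other strand, and around the start of Cd68, where it begins at 12.
Lyz2 (chr10:117282273-117282522, minus strand): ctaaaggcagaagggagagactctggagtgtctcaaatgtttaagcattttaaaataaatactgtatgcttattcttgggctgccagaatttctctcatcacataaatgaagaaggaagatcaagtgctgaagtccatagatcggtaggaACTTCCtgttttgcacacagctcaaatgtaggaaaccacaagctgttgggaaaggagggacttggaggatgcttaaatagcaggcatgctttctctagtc
Cd68 (chr11:69666142-69666171, minus strand): attttagttaagGGAAGTgaggcttttcat

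By the coverage values, the control library held about 18900000 mapped reads and the mutant about 23100000. Intervals in the text are 95% counting intervals from the estimated reads of each gene, and they hold no variation between embryos. They can be too narrow, since the cDNA was amplified before sequencing. As a check of the labels, Osr1 itself had 56.8 FPKM in the control library against 18.4 in the mutant. The floor below which a value was not read was 3 reads, which for a transcript of 1 kb is 0.159 FPKM (control) or 0.130 FPKM (mutant).

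Summed over the list, RNA of the macrophage genes was present in both libraries at a low level that hardly differed. The 31 genes summed to 58.0 FPKM in the control library against 62.7 in the mutant, a ratio of 1.08. Counted in reads, their sum was 2285 for the control and 2904 for the mutant. Relative to mapped reads this is a ratio of 1.04, with an interval of 0.982 to 1.1. Lcp1, Laptm5, Mrc1 and Coro1a held 433, 268, 258 and 145 of the control reads, and other cells express these genes too. The sum therefore does not show that RNA of macrophages alone was level. The median ratio of the 29 genes with more than 3 reads in either library was 1.03. Over all 6711 genes of the same range of mean FPKM (0.135 to 6.10) the median was 1.02.

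**Figure D1:**
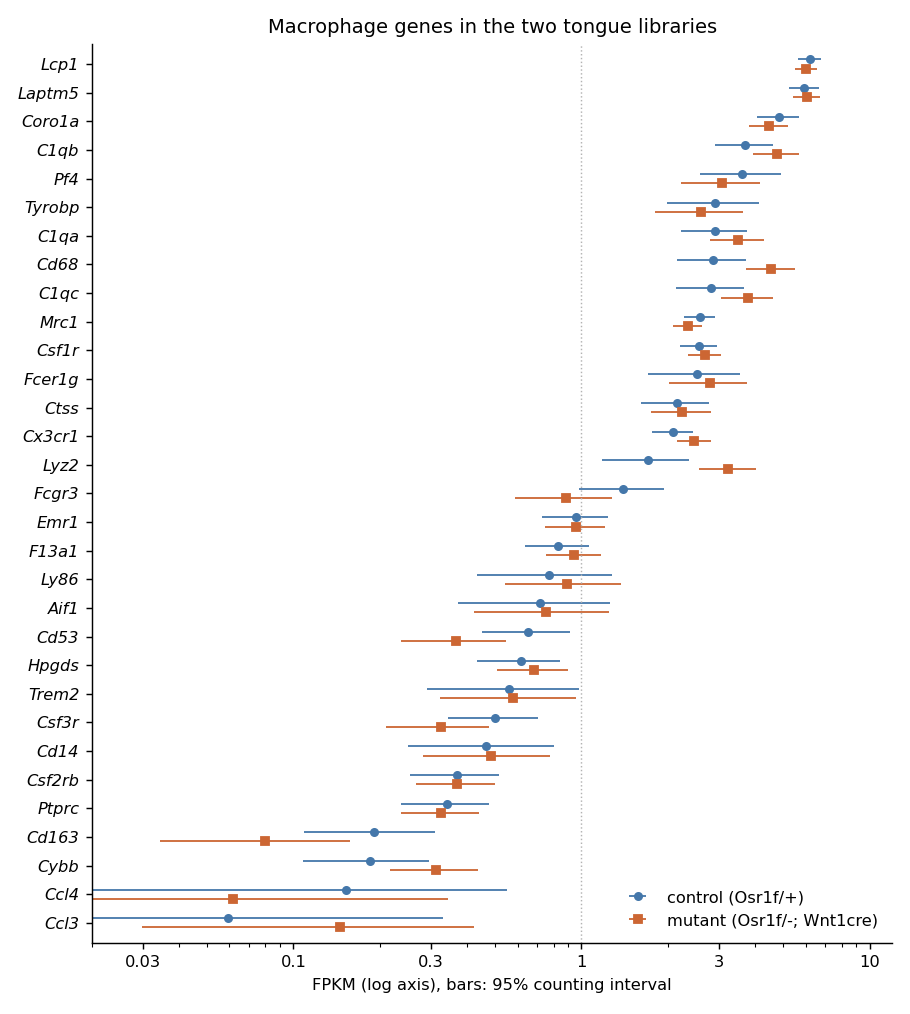
FPKM of the 31 macrophage genes on a log axis, with 1 point per library and bars for the 95% counting interval. The genes are ordered by their control level, from Lcp1 at 6.19 FPKM to Ccl3 at 0.0593 FPKM, and the dotted line marks 1 FPKM. The intervals of both libraries overlap for all genes but Lyz2 and Cd68.

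None of the 31 genes was at 0 in either library. Per length, the highest control levels were those of Lcp1 (6.19 FPKM), Laptm5 (5.92 FPKM) and Coro1a (4.83 FPKM). These genes are active in most white blood cells and not in macrophages alone. Lcp1 and Laptm5 did not differ beyond their counting intervals, which were 5.62 to 6.80 and 5.23 to 6.67 FPKM. Next in the control came C1qb and Pf4, and then a run of genes from Tyrobp at 2.91 FPKM to Fcer1g at 2.51 FPKM whose intervals all overlapped. In the mutant library Laptm5 stood first at 6.04 FPKM and Lcp1 second at 6.01 FPKM. Cd68 stood at rank 8 in the control and rank 4 in the mutant library, and Lyz2 at rank 15 and rank 8.

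At least 1 FPKM in either library was reached by 16 of the 31 genes, and the other 15 stayed below it in both. Fcgr3 reached 1 FPKM only in the control library, so given that threshold it could only count as lower. Of the 29 genes above 3 reads, 18 were higher and 11 lower in the mutant library. In the same range of FPKM 53.3% of all genes were higher and 46.7% were lower, and of all genes of at least 1 FPKM 51.2% were higher and 48.8% lower. At least 1.5-fold higher were 3 of the 29 (10.3%) and at least 1.5-fold lower were 4 (13.8%), where the shares over genes of that range were 8.6% and 8.06%. Of the 16 genes of at least 1 FPKM, 2 were at least 1.5-fold higher and 1 lower, beside 1.9% and 1.36% of all genes of that level. An interval of the ratio above 1 was found for 2 of 29 genes (6.90%), Lyz2 and Cd68, beside 8.14% of genes of the range. None had an interval below 1, beside 6.51%. Of the 16 genes of at least 1 FPKM, 2 had an interval above 1 (12.5%), beside 10.7% of all 12383 genes of that level. The share with an interval below 1 was 10.2% of all, and none of the 16. Beside genes of the same range of FPKM, the counts of macrophage genes that differed thus lay near the background. The lower shares past 1.5-fold among all genes of at least 1 FPKM include abundant genes, whose ratios scatter less in the plot of ratio against level.

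**Figure D2:**
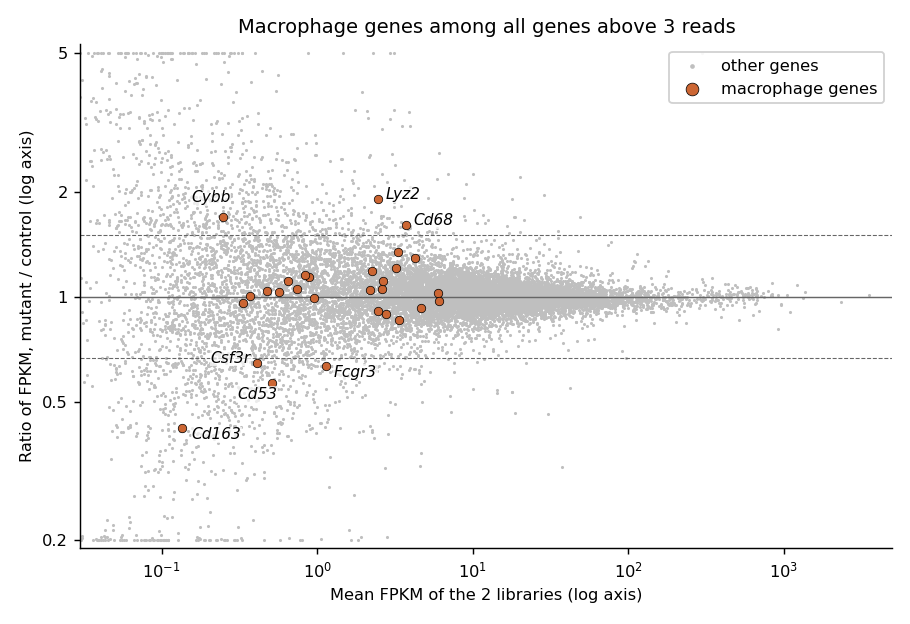
Ratio of FPKM between the mutant and the control library against the mean FPKM, both on log axes, for all genes with more than 3 reads in either library and more than 0 FPKM in both. Gray points are other genes, with ratios beyond 0.2 and 5 drawn at those limits, and 29 macrophage genes are colored. Dashed lines mark 1.5-fold, past which lie Lyz2, Cd68 and Cybb above and Fcgr3, Csf3r, Cd53 and Cd163 below.

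Of the factor and receptors that make and keep myeloid cells, Csf1r and Csf2rb were close between the libraries, Spi1 was higher and Csf3r lower in the mutant, and all intervals included 1. Spi1, listed as Sfpi1 (NM_011355; mm9 chromosome 2, bases 90936954 to 90955913), was read at 0.806 FPKM in the control library against 1.08 in the mutant. Its ratio of 1.35 rested on 20 and 33 reads, with an interval of 0.75 to 2.48. Csf1r, the receptor for the cytokines CSF1 and IL-34, had 2.55 FPKM in the control library against 2.68 in the mutant, a ratio of 1.05 (0.866 to 1.28). This is among the better counted genes, with 186 and 240 reads, which makes its interval one of the narrower ones. Csf2rb, the shared receptor chain for GM-CSF, IL-3 and IL-5, had 0.369 and 0.371 FPKM. It has a near-identical neighbor in Csf2rb2, at 0.298 and 0.295 FPKM, so reads of the pair were not assigned with certainty. Csf3r, the G-CSF receptor of the granulocyte line and of some macrophages, had 0.501 FPKM in the control library against 0.324 in the mutant. Its ratio of 0.646 had an interval of 0.362 to 1.11.

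The ligands of these receptors were read from a list of 15 ligands and partner receptors. Of these, 12 were above 3 reads, with 5 higher and 7 lower, 2 with an interval above 1 (16.7%) and none below. Both reached 1 FPKM, a level at which 10.7% of all genes had an interval above 1 and 10.2% below. Csf1 had 3.90 FPKM in the control library against 3.72 in the mutant, a ratio of 0.954 (0.788 to 1.09). Cx3cl1, the ligand of the receptor Cx3cr1, had 0.858 and 1.28 FPKM, a ratio of 1.5 (1.05 to 2.14). Cxcl12, a chemokine of connective tissue, had 97.6 and 123 FPKM, a ratio of 1.26 (1.22 to 1.31). Its receptor Cxcr4 had a ratio of 0.964.

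Cx3cr1, a chemokine receptor of tissue macrophages and microglia (NM_009987, chromosome 9, 119957811 to 119977400), had 2.08 FPKM in the control library against 2.46 in the mutant. The ratio was 1.18 (0.956 to 1.47), from 146 and 212 reads. Pf4, a chemokine of platelets that embryonic macrophages also express, had 3.61 and 3.08 FPKM, a ratio of 0.855 (0.543 to 1.36). Ccl3 and Ccl4, chemokines that activated macrophages release, were at the limit of the depth. Ccl3 had 1 and 3 reads and Ccl4 had 2 and 1, so no ratio is given for either. Both libraries thus held Cx3cr1 well above the floor and almost no Ccl3 or Ccl4.

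The 3 chains of complement C1q, the protein that tags dying cells and immune complexes for removal, were higher together. Their genes stand side by side on mm9 chromosome 4, C1qb (136436061 to 136442092), C1qc (136445717 to 136448829) and C1qa (136451831 to 136454759). C1qa had 2.90 FPKM in the control library against 3.5 in the mutant. C1qb had 3.69 and 4.76 FPKM, and C1qc had 2.81 and 3.78 FPKM. The ratios were 1.2 (0.855 to 1.71), 1.29 (0.957 to 1.75) and 1.34 (0.952 to 1.90), so no chain by itself differed beyond its counting error. Their summed reads, 189 and 296, gave a ratio of 1.28 relative to mapped reads, with an interval of 1.06 to 1.54. Of the 10 groups of roles into which the 32 genes fall, C1q was the only group whose summed reads had an interval above 1, and none had one below. Among all single genes of at least 1 FPKM, 10.7% had an interval above 1, and no share over groups of genes was computed. The C1q genes are neighbors and their products form 1 complex, so they are not 3 independent readings.

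Of 10 further complement genes, 6 were higher and 4 lower, with 1 interval above 1 and 1 below. Serping1, which inhibits C1, had 3.35 and 4.29 FPKM, a ratio of 1.28 (1.01 to 1.63). Cfp, which encodes properdin, had 5.57 and 4.87 FPKM. C1s, a protease that joins C1q in the C1 complex, was named after its values were seen. It had 0.955 FPKM in the control library against 0.427 in the mutant, a ratio of 0.447 (0.279 to 0.731) opposite in direction to the C1q chains.

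The receptors that signal through ITAM adaptors showed no shared direction. ITAM motifs are short tyrosine motifs that couple receptors to kinases. Tyrobp (DAP12), the adaptor of Trem2, had 2.91 and 2.60 FPKM, a ratio of 0.892 (0.534 to 1.51). Trem2, a receptor for lipids and cell debris, had 0.562 and 0.579 FPKM from 12 and 15 reads. Fcer1g, the adaptor of the Fc receptors, had 2.51 and 2.78 FPKM, a ratio of 1.11 (0.679 to 1.82). Fcgr3, an Fc receptor for IgG that needs Fcer1g, had 1.4 FPKM in the control library against 0.886 in the mutant. Its ratio of 0.634 (0.373 to 1.07) rested on 36 and 28 reads. The adaptor and the receptor it carries thus lay on opposite sides of 1, each with an interval that included 1. In a list of 14 genes of ITAM signalling, 13 were found under the symbols sought. Of these, 12 were above 3 reads, 9 of them higher and 3 lower, with 1 interval above 1 and none below. The 4 that reached 1 FPKM, Lyn, Inpp5d, Dok2 and Ptpn6, had ratios of 1.04, 1.03, 1.01 and 1.01.

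Receptors for microbial products were few in reads. Cd14, a coreceptor for lipopolysaccharide, had 0.468 and 0.484 FPKM from 13 and 17 reads, and Ly86 (MD-1), the partner of the receptor CD180, had 0.773 and 0.890 FPKM from 15 and 20. At this depth their intervals, 0.488 to 2.39 and 0.530 to 2.29, would hold a change of 2-fold in the direction of higher values.

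The receptors and surface proteins used to recognize macrophages went separate ways. Mrc1, the mannose receptor of tissue macrophages (NM_008625, chromosome 2, 14151041 to 14253650), had 2.57 FPKM in the control library against 2.34 in the mutant. Its ratio of 0.910 (0.765 to 1.08) rested on 258 and 287 reads, and its model overlaps that of Mir511. Emr1, an adhesion receptor widely used to stain mouse macrophages, had 0.961 and 0.954 FPKM, a ratio of 0.993 (0.686 to 1.41). Cd163, the receptor for hemoglobin bound to haptoglobin, had 0.191 and 0.0798 FPKM, from 16 and 8 reads. Its ratio of 0.419 was the lowest among genes above 3 reads, and its interval of 0.151 to 1.01 included 1.

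Cd68, a glycoprotein of endosomes and lysosomes of phagocytes (NM_009853, chromosome 11, 69477873 to 69479564), had 2.85 FPKM in the control library against 4.56 in the mutant. The ratio was 1.60 (1.14 to 2.27), from 54 and 106 reads. Its 2 levels, with intervals of 2.14 to 3.72 and 3.73 to 5.51 FPKM, did not overlap. The abundant gene Eif4a1 lies 873 bases from the Cd68 model and had 398 and 381 FPKM, a ratio of 0.958.

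Lyz2, the lysozyme of macrophages and neutrophils (NM_017372, chromosome 10, 116714597 to 116719328), showed the largest ratio among the genes above 3 reads. It had 1.70 FPKM in the control (interval 1.17 to 2.37) and 3.23 FPKM in the mutant library (2.56 to 4.03). The ratio was 1.91 (1.25 to 2.93), from 34 and 79 reads. Its paralog Lyz1, which lies 5522 bases away and resembles it closely, had about 1 and 4 reads as the authors' tool divided them. How many reads the pair shared was not tested. Without Lyz2 and Cd68, the summed reads of the other 29 genes had a ratio of 1.01 (0.955 to 1.07).

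Lyz2 is also a gene of granulocytes, and their markers were read beside it. Of 10 granulocyte markers, 8 were above 3 reads, 5 higher and 3 lower, with summed levels of 5.06 FPKM in the control library against 6.40 in the mutant. Their summed reads, 78 and 130, had a ratio of 1.36 (1.02 to 1.83). S100a9 had 1.01 and 1.92 FPKM from 9 and 22 reads, whereas S100a8 and Prtn3 had ratios of 0.849 and 0.678. The granule genes Ltf and Ngp, named after their values were seen, had 5 and 26 reads and 7 and 21 reads. Their ratios were 4.70 (1.60 to 14.2) and 2.58 (1.003 to 6.82). Elane, the neutrophil elastase, had 1 read in each library, and Ctsg and Cebpe had none in the control. The part of granulocytes in the Lyz2 value was not tested.

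The remaining lysosome and oxidase genes were closer. Laptm5, a lysosomal membrane protein of blood cells, had 5.92 and 6.04 FPKM, a ratio of 1.02 (0.867 to 1.2). Ctss, the protease cathepsin S, had 2.14 and 2.23 FPKM, a ratio of 1.04 (0.720 to 1.51). Cybb, the catalytic subunit of the phagocyte NADPH oxidase, had 0.185 and 0.313 FPKM. It rested on 17 and 34 reads, and its ratio of 1.69 had an interval of 0.887 to 3.12. Cybb is X-linked, and Xist, which is made from the inactive X chromosome of females, had 61.1 and 86.1 FPKM, and its part in the Cybb value was not tested. Cyba, the partner subunit that many cells express, had 13.2 and 11.1 FPKM, a ratio of 0.838. Of 5 oxidase partners, 3 were higher and 2 lower, and no interval excluded 1.

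Lysosome genes that all cells use were read beside Lyz2 and Cd68. Of 14 such genes 9 were higher and 5 lower, with a median ratio of 1.03, 1 interval above 1 and none below. All 14 reached 1 FPKM, a level at which 10.7% of all genes had an interval above 1 and 10.2% below. Grn and Ctsl had ratios of 1.07 and 1.07, and Hexa had 0.933. Among 12 genes of engulfment, 11 were above 3 reads, 9 higher and 2 lower, with 2 intervals above 1 and 2 below. Of the 12, 10 reached 1 FPKM, a level at which 10.7% of all genes had an interval above 1 and 10.2% below. Mertk, a receptor through which macrophages take up dying cells, had 5.27 FPKM in the control library against 6.87 in the mutant, a ratio of 1.3 (1.14 to 1.49). Its ligand Gas6 had a ratio of 1.22 (1.0 to 1.49), while Pros1, a further ligand, and the integrin gene Itgav had 0.872 and 0.848. These genes are expressed by many cell types besides macrophages.

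Of the 5 genes shared by white blood cells, 1 was higher and 4 were lower by FPKM, and no interval excluded 1. Ptprc, among the 4, was higher with estimated reads in place of FPKM, at 0.011 against −0.016 on the log2 scale. Lcp1, an actin-bundling protein (NM_008879, chromosome 14, 75536232 to 75630610), was the best counted gene, with 433 and 515 reads. Its levels of 6.19 and 6.01 FPKM gave a ratio of 0.971 (0.853 to 1.11). Coro1a, an actin regulator, had a ratio of 0.928 (0.739 to 1.17), and Aif1 (IBA1), a calcium-binding protein of macrophages and microglia, had 1.05 (0.446 to 2.39). Cd53, a tetraspanin of leukocytes, had 0.651 FPKM in the control library against 0.368 in the mutant. Its ratio of 0.565 rested on 34 and 24 reads, and its interval of 0.327 to 1.0 just included 1. The 5 genes together had a ratio of summed reads of 0.946 (0.851 to 1.05).

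Ptprc, which encodes the leukocyte phosphatase CD45 (chromosome 1, 139959438 to 140071882), had 0.341 FPKM in the control library against 0.326 in the mutant, a ratio of 0.957 (0.643 to 1.67). The total was level, but it stood on different transcript rows. In the control 0.341 FPKM was assigned to NM_011210, of 5247 nt, and almost nothing to NM_001111316. In the mutant library 0.326 FPKM was assigned to NM_001111316, of 5664 nt, and 0.000352 FPKM to NM_011210. CD45 is known for alternative exons that tell leukocyte types apart. Here 34 and 43 reads were divided by the authors' estimation between transcripts that share most of their bases, so the switch is a value of the tables and not a count of isoforms.

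Of the enzymes, Hpgds, a prostaglandin D synthase of macrophages and mast cells, had 0.615 and 0.683 FPKM, a ratio of 1.11 (0.721 to 1.74). F13a1, the A subunit of coagulation factor XIII, had 0.829 and 0.941 FPKM, a ratio of 1.13 (0.799 to 1.59). Of 8 mast cell markers, 3 were at 0 in both libraries, the proteases Tpsb2, Cma1 and Mcpt4. Cpa3 and Ms4a2 had no more than 1 read in either. Only Kit, a gene of many cell types, reached 1 FPKM, at 6.53 and 6.06 FPKM, and the summed levels of the list were 8.1 and 7.84 FPKM.

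**Figure D3:**
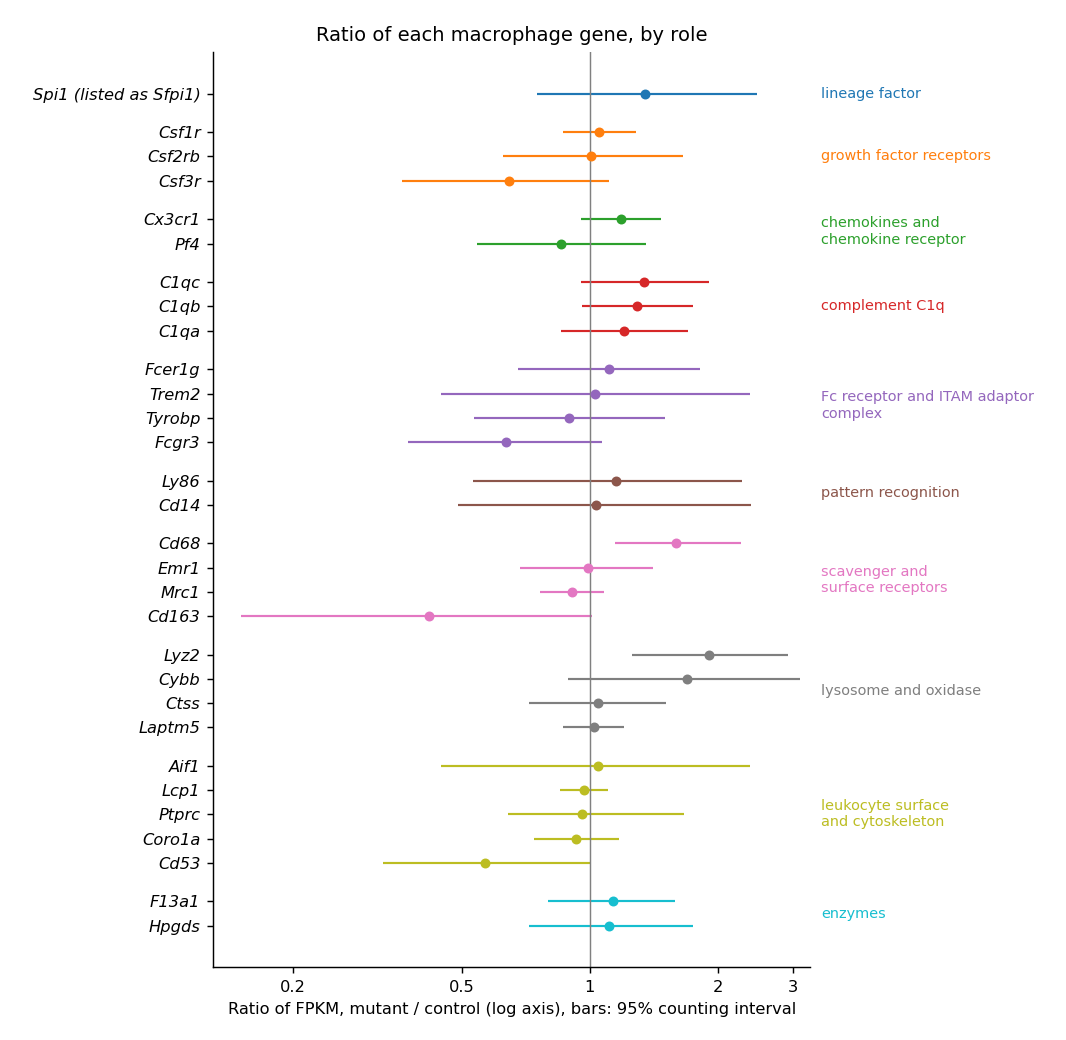
Ratio of FPKM, mutant over control, on a log axis for the 29 macrophage genes above 3 reads and for Spi1, grouped and colored by role, with 95% counting intervals as bars. The intervals of Lyz2 (1.25 to 2.93) and Cd68 (1.14 to 2.27) lie above 1, all others include it, and the 3 C1q chains lie on the same side.

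A list of 22 other macrophage genes, outside the 32, was read in the same way. Of 20 above 3 reads, 13 were higher and 7 lower, with a median ratio of 1.24. At least 1.5-fold higher were 6 of the 20 (30%) and at least 1.5-fold lower were none, beside 8.6% and 8.06% of genes in the range of FPKM of the 31. All 6 were under 1 FPKM, with 2 to 17 reads in the control library and 5 to 32 in the mutant. Only 5 of the 22 reached 1 FPKM, so that range is not matched to this list. No share over genes of the list's own level was computed. Their summed reads had a ratio of 1.03 (0.955 to 1.11), but 802 of the 1196 control reads were those of Sirpa, which is also neuronal. Without Sirpa, an alternative chosen after seeing the data, the sum was 394 and 604 reads, a ratio of 1.25 (1.1 to 1.42). Mpeg1, a pore-forming protein of macrophages, had 1.39 and 1.72 FPKM, a ratio of 1.23. Cd52 and Tlr2 had ratios of 1.28 and 1.26, and Sirpa had 0.933. The only interval above 1 was that of Msr1, a scavenger receptor named after its values were seen, with 7 and 28 reads and a ratio of 3.15 (1.39 to 8.86).

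Transcription factors of myeloid cells were read from a list of 12. Of these, 9 were higher and 3 lower, and 6 had an interval above 1 (50%), beside 8.14% of genes in the range of FPKM of the 31. Maf and Fli1, with mean levels of 8.25 and 10.2 FPKM, lie above that range. All 6 were among the 8 factors that reached 1 FPKM, a level at which 10.7% of all genes had such an interval. Ikzf1 (Ikaros), a factor of blood cells, had 0.646 FPKM in the control library against 1.2 in the mutant, a ratio of 1.86 (1.41 to 2.63). Cebpb had 2.60 and 3.57 FPKM, a ratio of 1.37 (1.02 to 1.85). Maf, a factor of mature macrophages that other tissues also express, had a ratio of 1.18 (1.06 to 1.33). Ikzf1, like Cx3cl1, Cd52, Tlr2, Sall1 and Spi1, reached 1 FPKM only in the mutant library and could for that reason count only as higher there. Several of the 12, such as Fli1 and Runx1, are active in endothelium or mesenchyme too, and the part of those tissues was not tested. The endothelial genes Erg and Pecam1 had ratios of 1.27 and 1.24 in the same libraries, and Sox18 and Kdr had 0.885 and 0.911. The 10 endothelial markers summed to 84.9 and 89.0 FPKM, 7 higher and 3 lower.

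Markers of other blood cells set the frame for the list. The 10 erythroid markers summed to 1430 FPKM in the control library against 1178 in the mutant, with 9 lower and 1 higher, and their summed reads had a ratio of 0.821 (0.804 to 0.839). The macrophage sum did not share that direction. The 11 megakaryocyte markers summed to 6.70 and 8.42 FPKM, 7 higher and 4 lower. Vwf held 233 of their 418 control reads and had a ratio of 1.14 (0.960 to 1.35). Ppbp, a platelet chemokine beside Pf4 in kind, had a ratio of 2.16 (1.27 to 3.63), where Pf4 had 0.855. No lymphocyte marker of 11 reached 1 FPKM, and 3 were above 3 reads. Of 9 genes of dendritic cells and MHC class II, Itgax was at 0 in both libraries and only Zbtb46 reached 1 FPKM, at 1.66 and 1.32 FPKM. The monocyte marker Ly6e had 15.5 FPKM in both libraries, while Ccr2, named for its low values, had 0.101 and 0.131 FPKM.

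Genes used to mark microglia cannot be read as such here. Tmem119 and Olfml3 had 39.4 and 31.1 FPKM in the control, far above Csf1r, and Sall1 had 0.689 and 1.45 FPKM. Their ratios were 0.831, 1.34 and 2.10, with intervals that excluded 1 and no common direction. P2ry12, a more restricted marker named after its values were seen, had 0.568 and 0.406 FPKM from 25 and 22 reads. Its ratio of 0.715 had an interval of 0.386 to 1.33, which included 1. Of the 6 genes listed for microglia, 3 were higher and 3 lower. Lymphatic endothelium is a further tissue that expresses Mrc1. Of its 5 markers, 1 was higher and 4 lower. They summed to 15.6 and 14.8 FPKM, and Prox1, Flt4 and Pdpn had ratios of 1.01, 0.977 and 0.945. Lyve1 and Stab2, named after their values were seen, had 22 and 14 reads and 6 and 3 reads. Their ratios were 0.529 (0.246 to 1.06) and 0.408 (0.0661 to 1.91).

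**Figure D4:**
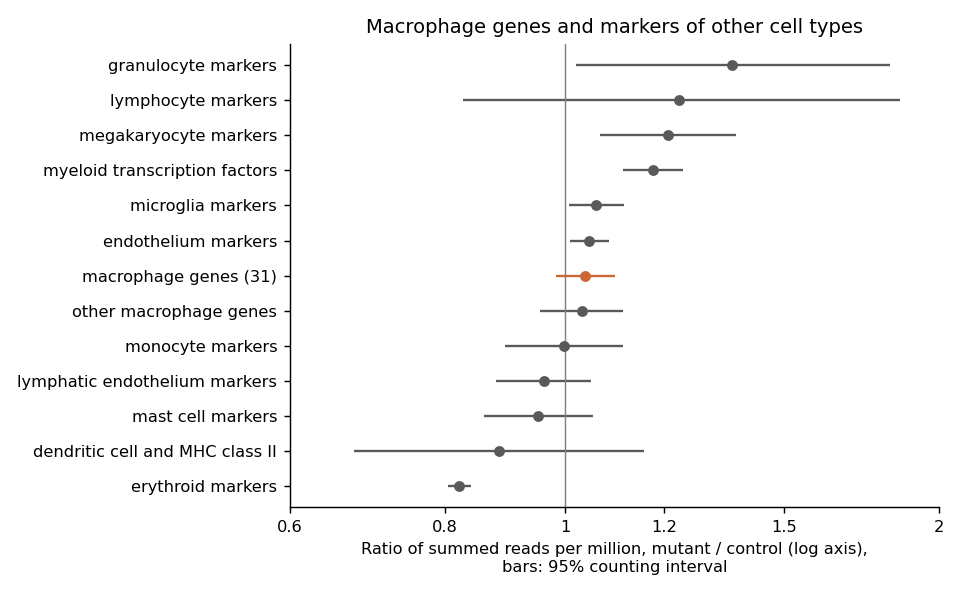
Ratio of summed reads relative to mapped reads, mutant over control, on a log axis, for the 31 macrophage genes (colored) and 12 other lists (gray), with 95% counting intervals as bars. The macrophage sum lies at 1.04, the erythroid markers at 0.821, and the granulocyte markers at 1.36 with a wide interval. Single genes hold most reads of some sums, such as Sirpa among the other macrophage genes, Kit among mast cell markers (637 of 721 control reads) and Ly6e among monocyte markers (583 of 602). Among megakaryocyte markers Vwf holds 233 of 418 control reads.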

How the data were processed

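Per the labels' protocols, cDNA was amplified from tongue RNA with a NuGEN Ovation v2 kit, with 1 library per genotype. Alignment tools and build, per the submitters' processing notes, were TopHat 1.4.1, Bowtie 0.12.7 and mm9. The Cufflinks version is not given in the sources used here. The authors' FPKM values stand for single RefSeq transcripts, per the file headers. The deposited coverage, a signal per transcript not scaled for depth, is per the file headers too. Gene coordinates are on mm9, with starts moved to count from 1.

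Rows of a symbol were summed. Coverage times length gave sequenced bases, and the smallest values among genes of 1 row (1000 nt or longer) lay around 47.4, used as the bases of 1 read. Reads gave Poisson intervals of levels and exact conditional (Clopper-Pearson) intervals of ratios (Python 3.11.15, scipy 1.17.1). The ratio intervals were run on simulated reads drawn as Poisson counts, the form they assume. That run held no amplified copies and no division of reads between transcripts, so it cannot show how the intervals hold here. The intervals hold the counting error of reads alone. Because the cDNA was amplified, reads do not stand for separate molecules, so the intervals can be too narrow. Ratios are of FPKM, and medians on the log2 scale are of FPKM plus 1. A gene counted as measured from 1 FPKM in either library. Reads shared by overlapping or near-identical genes were divided by the authors' tool, so such values are uncertain.

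The members and all gene lists were chosen with earlier results of these data known. All 32 members are named, and of other lists up to 4 measured genes with the largest absolute log2 ratio, plus defining markers at 0. Exceptions were named after their values were seen: C1s, Ltf, Ngp, Elane, Ctsg, Cebpe, Cpa3, Ms4a2, Msr1, Ccr2, P2ry12, Lyve1, Stab2, Csf2rb2, Lyz1, Eif4a1, Xist, Fli1 and Runx1. Alternatives were another pseudocount, other filters, 3 scalings, the largest row, reads in place of FPKM, and genes without overlapping models. Some genes of the lists are not reported here by name.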

Additional observations from a re-analysis of the deposited data

How the results depend on the processing

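Over 9 alternatives the median log2 ratio of the macrophage genes of at least 1 FPKM, 0.05 over 16 genes, ran from −0.0052 to 0.065. The ratio of summed FPKM ran from 1.05 to 1.09. With a threshold of 5 FPKM only 2 genes were left, so 1 was higher and 1 lower, and 0 were past 1.5-fold or had an interval above 1. With no filter 18 were higher and 11 lower, and 4 at least 1.5-fold lower. Of 4 alternatives chosen after seeing the data, folds of FPKM plus 1 left 1 gene at least 1.5-fold higher (Lyz2, not Cd68) and 0 lower, leaving out Lyz2 and Cd68 left 0 at least 1.5-fold higher and 0 with an interval above 1, and leaving out Sirpa moved the summed reads of the other macrophage genes from a ratio of 1.03 to 1.25. Of 218 values of single genes 208 stayed within the counting interval and 10 did not. Of these, 9 were values of genes under 1 FPKM (Cd53, Csf3r, Cd163, Ccl4 and Cybb) with a pseudocount of 0.1 or on the TPM scale, where the pseudocount weighs less. The other was Ptprc, at −0.42 on the log2 scale with its largest transcript row alone against −0.02 as reported. No value whose interval excluded 1 changed sign. No paired analysis was possible because each genotype had 1 library. Below 1 FPKM the genes above 3 reads had 8 to 84 reads, which limits what a ratio can show.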
